A study of Mus musculus with 8 samples.

Results

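The regions described here are DMRT6 binding peaks of the adult mouse testis that lie far from any gene start. A peak was taken when its middle lay in none of the 22744 genes of the expression table and more than 50 kb from the nearest gene 5' end on its chromosome. The rule used positions only, and it took 2587 of 14862 peaks, or 17.4% (95% exact binomial interval 16.8% to 18.0%). The remaining peaks were 2724 within 1 kb of a 5' end, 5989 elsewhere in a gene and 3562 in no gene but within 50 kb of a 5' end.

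DMRT6, the product of Dmrtb1, belongs to the doublesex and mab-3 related family of transcription factors, which bind DNA through a zinc-finger-like DM domain. In the mouse it is made in male germ cells and acts in spermatogonia as they differentiate and prepare for meiosis. Transcription factors often bind away from gene starts, where enhancers lie, and an enhancer can act on a gene other than the nearest. The gene nearest to a peak is therefore used below as a description of position.

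The groups were Dmrt6 null testis at postnatal day 8 (P8) and wild-type testis of the same age, both on a C57BL/6 background, with 3 RNA libraries each that the design text calls biological replicates. Binding came from adult wild-type testis of a background labelled "C57BL/6, Mixed", with 1 chromatin immunoprecipitation (ChIP) library and 1 input library. The antibodies were rabbit polyclonals against the C-terminal 148 residues of DMRT6, and null testis was not among the ChIP samples. The testes in the 2 assays thus differed in age, and all RNA came from whole testis, in which fewer cells of a type and less RNA per cell cannot be told apart. Depth in the expression table was 26.2, 27.4 and 26.3 M reads in null replicates 1, 2 and 3, and 23.8, 29.0 and 27.5 M in wild-type replicates 1, 2 and 3. How deeply the ChIP and input DNA was sequenced is not known from the files, and with 1 ChIP library no peak has a replicate check. Differences between groups of peaks are given below as values with counting intervals and without a test. Neighbouring peaks are not independent, so these intervals are too narrow as well as covering counting error only.

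Far intergenic peaks were sparse for the length of genome that could hold them, and they thinned out steadily with distance. Positions in no gene and more than 50 kb from a 5' end made up 1147 Mb, or 43.4% of the mm9 chromosomes up to the last gene or peak. This far territory held 2.25 peaks per Mb (95% exact Poisson interval 2.17 to 2.34), against 8.22 per Mb (8.07 to 8.36) in the rest of the genome. Density was 4.54 peaks per Mb at 50 to 75 kb, 3.90 at 75 to 100 kb, 2.75 at 100 to 200 kb and 1.76 at 200 to 500 kb. It was 1.03 per Mb (0.884 to 1.19) at 500 to 1000 kb and 0.325 per Mb (0.227 to 0.449) beyond 1000 kb, where 36 peaks lay. The last of these values depends on the stretch before the first gene or peak of each chromosome: without that stretch it was 0.553 per Mb (0.387 to 0.766). How much of the territory short reads can be aligned to is not known from the files.

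The median distance to a 5' end was 129 kb, with quartiles of 77.6 and 248 kb and a maximum of 2892 kb. Upstream of the nearest 5' end lay 55.0% of far peaks (53.0% to 56.9%) and 54.5% of the far territory, a difference within the interval. Peaks farther out tended to be weaker and narrower by the authors' score and width, though not at each step. The median score was 93.3, 96.5, 91.95, 85.5, 87.3 and 80.7 in the same bins of distance, from 50 to 75 kb outwards. In that order the median width was 165.5, 173, 159, 151, 147 and 145 bp. The share with another peak within 10 kb was 18.3%, 19.5%, 14.1%, 11.0%, 6.56% and 0%. Density fell over the same bins, and a lower density by itself lowers this share.

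**Figure D1:**
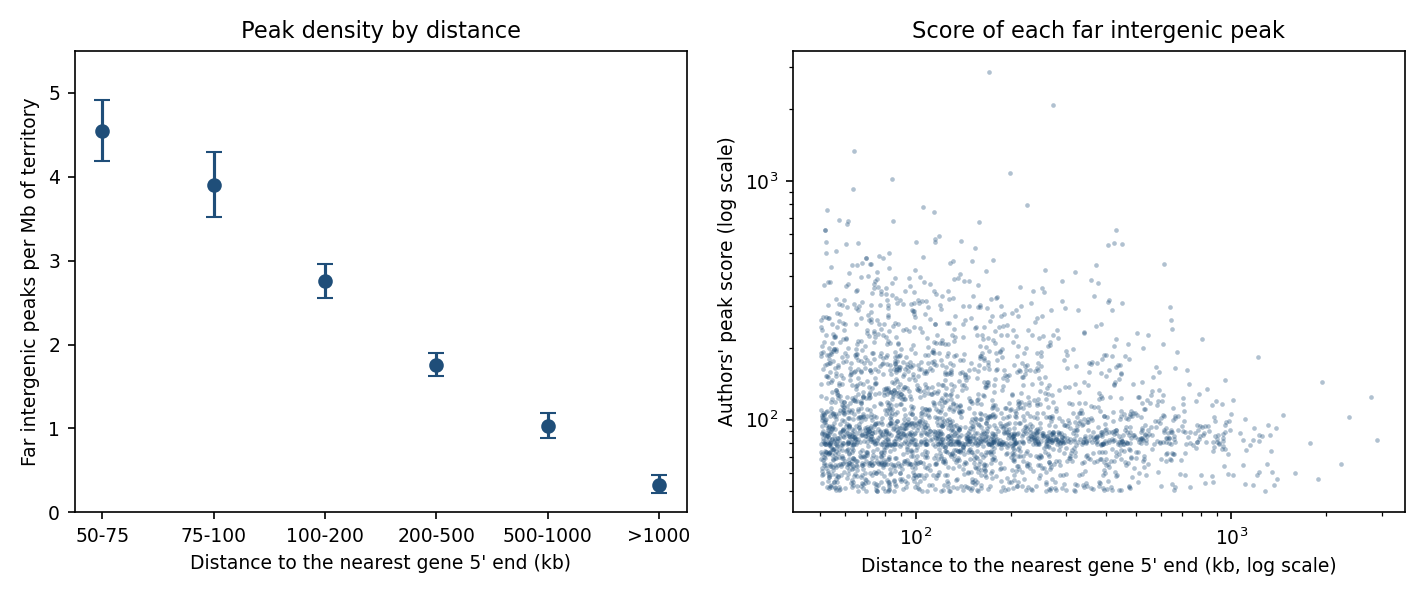
Left, far intergenic peaks per Mb of far territory (vertical axis) in 6 bins of distance to the nearest gene 5' end (kb), with 95% exact Poisson intervals as bars. Right, the authors' score of each of the 2587 peaks against its distance, both on log axes; density falls from 4.54 to 0.325 per Mb across the bins, and the few scores above 1000 lie within 300 kb of a 5' end.

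Distance from a 5' end is not distance from a gene, because a peak can lie just past the 3' end of a long gene. Of the far peaks, 84 (3.25%) were within 10 kb of a gene body and 373 (14.4%) were between 10 and 50 kb of it, while 1313 (50.8%) were more than 100 kb from any gene body. Peaks per Mb were 4.74 (3.78 to 5.87) within 10 kb of a gene body, 4.99 (4.496 to 5.52) at 10 to 50 kb, 3.57 (3.32 to 3.82) at 50 to 100 kb and 1.59 (1.51 to 1.68) beyond. To set aside distance from the 5' end, each piece of territory was given the genome-wide density of its distance bin, and the sum is called the number expected from distance. Within 10 kb of a gene body the observed count was 1.35 times that number (1.07 to 1.67), and at 10 to 50 kb it was 1.401 times (1.26 to 1.55). At 50 to 100 kb the ratio was 0.926 (0.864 to 0.992), and beyond 100 kb it was 0.954 (0.903 to 1.01). Against the density of its distance bins, territory within 50 kb of a gene body thus held more peaks than territory farther from one. The bins are wide and density fell from each to the next, so differences in distance within a bin were not set aside.

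As a class the far peaks were narrow, solitary and seldom of high score. Their median width was 156 bp (quartiles 142 and 210), against 200 bp within 1 kb of a 5' end, 177 bp in genes and 175 bp in intergenic sequence within 50 kb. Another peak lay within 10 kb of 14.46% of far peaks (13.1% to 15.9%), against 37.2%, 27.0% and 32.2% in those classes. The median distance to the nearest other peak was 68.2 kb, against 20.1, 28.8 and 21.9 kb. Density differed as well, at 2.25 peaks per Mb in far territory and 8.22 in the rest. A lower density by itself leaves fewer close neighbours, so these values do not show whether far peaks avoid each other. The median score was 89.3, above the 85.5 of peaks within 1 kb of a 5' end and below the 100.4 of peaks in genes and the 99.3 of intergenic peaks within 50 kb. A score of 200 or more was reached by 314 far peaks (12.1%), against 11.5%, 20.1% and 19.03% of those classes, and a score of 500 or more by 33 (1.28%), against 2.35%, 3.54% and 3.09%. When all peaks were cut into 5 equal groups by score, far peaks made up 17.8%, 20.02%, 19.9%, 16.2% and 13.1% of these groups from low to high. Their share of the list was thus lowest among the strongest peaks.

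**Figure D2:**
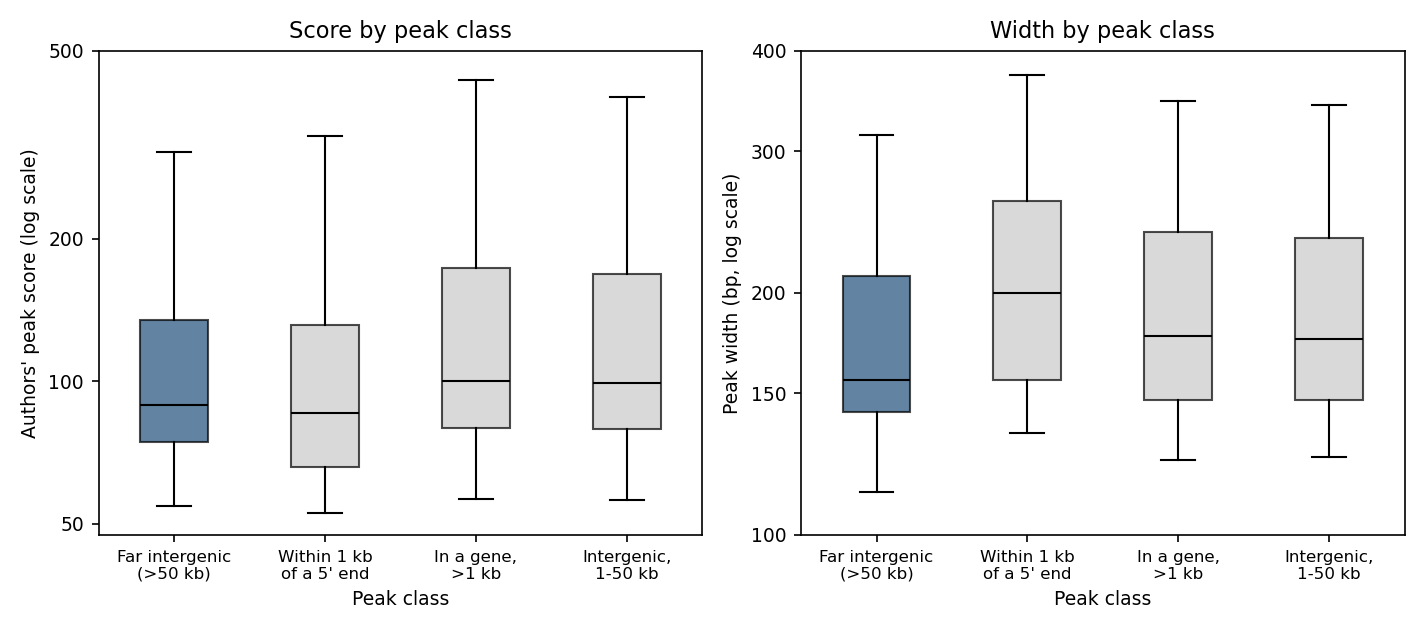
The authors' peak score (left) and peak width in bp (right), both on log axes, for far intergenic peaks (n = 2587, blue) and the other 3 classes (n = 2724, 5989 and 3562, grey). Boxes span the quartiles around the median and whiskers the 5th to 95th percentiles; far peaks are the narrowest class, with a median of 156 bp.

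Far peaks were spread over every chromosome, with the X chromosome lowest in density. Among autosomes the share of peaks that were far intergenic was between 7.66% on chromosome 11 and 25.7% on chromosome 13. Their density in far territory was between 1.61 per Mb on chromosome 3 and 3.39 per Mb on chromosome 5. The X chromosome held 70 far peaks among 182 peaks, a share of 38.5% (31.4% to 45.9%), at 0.896 per Mb (0.698 to 1.13). Density in the rest of the X was also low, at 1.27 per Mb (1.04 to 1.53), where the autosomes had between 6.23 and 11.7 per Mb. Of the 70 far peaks of the X, 16 lay between Gm5167 and Rps12-ps6 and 7 between Gm7698 and Gm7711, with no score above 87.7. Set against the number expected from distance, the far peaks of the X came to 0.362 times (0.282 to 0.457), those of chromosome 3 to 0.729 times (0.612 to 0.862) and those of chromosome 5 to 1.51 times (1.31 to 1.73). Chromosomes 8 and 13 also lay above it, at 1.33 times (1.15 to 1.54) and 1.31 times (1.13 to 1.52). All 9 peaks of the Y chromosome were far intergenic.

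**Figure D3:**
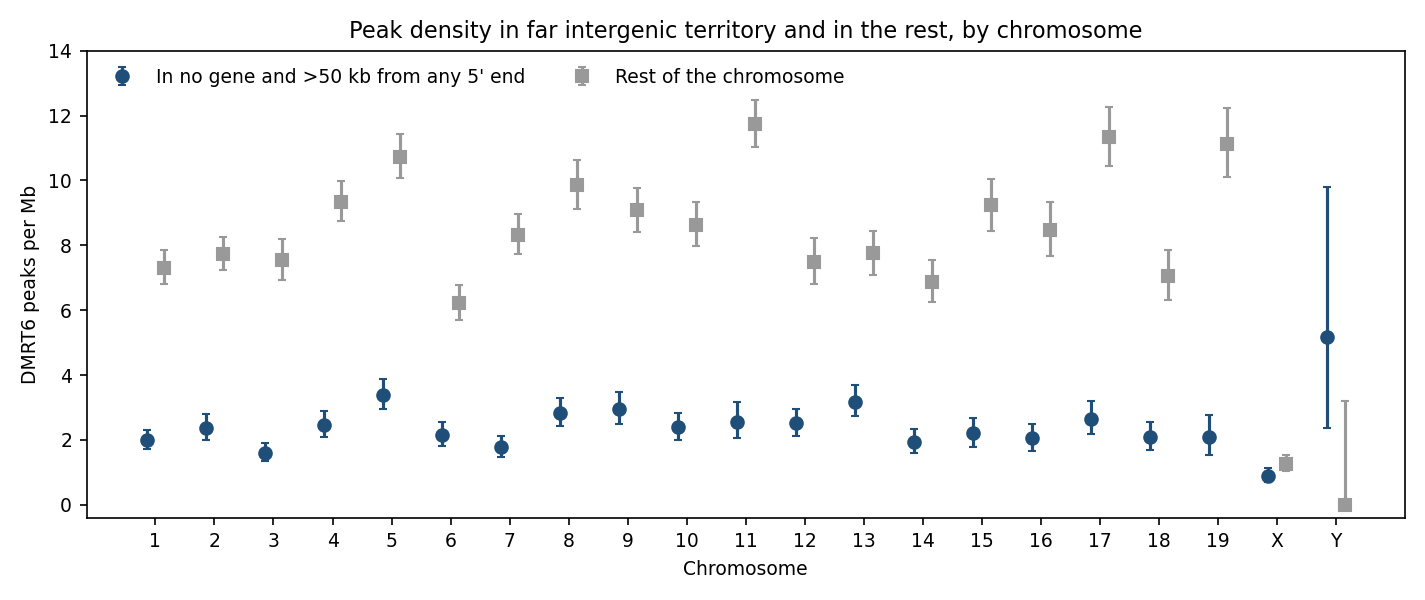
DMRT6 peaks per Mb on each chromosome, in far intergenic territory (blue circles) and in the rest of the chromosome (grey squares), with 95% exact Poisson intervals. Far density is below that of the rest on every chromosome but Y, and the 2 values are closest on X (0.896 and 1.27 per Mb).

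Some territory that looks empty in the expression table holds genes that the table lacks. That table lists only genes with at least 11 reads over the 6 libraries. RefSeq annotation of a later build (GRCm38) was used to ask which genes lie between the same pair of flanking genes. Its coordinates gave the genes in a gap, the gap length to compare and the share of a gap that genes fill. No peak was placed on them. The far peaks fell in 1368 gaps, counting the stretches beyond the outermost gene of a chromosome, which held 24 peaks. Of the gaps, 1107 with 2079 peaks could be matched, with a gap length within 10%. Of these peaks, 545 (26.2%, 24.3% to 28.2%) lay in a gap with at least 1 protein-coding gene missing from the table, and 1534 (73.8%) in a gap with none. Only 69 (3.32%) lay in a gap with no RefSeq gene of any kind, since 889 gaps held long noncoding RNA genes. The 1068 missing protein-coding genes included 302 olfactory receptors and 66 vomeronasal receptors, which serve smell and pheromone sensing, and 13 developmental transcription factors such as Pax3, Nkx2-1 and Six3. Missing genes covered at least 50% of 19 gaps with 26 far peaks. The gap between Clip4 and Ypel5 on chromosome 17 had the most of these, with 6 peaks and a highest score of 358, and the receptor tyrosine kinase gene Alk filled 75.7% of it.

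Most gaps held few peaks: 772 held 1, and 81 held 5 or more, with 536 peaks among them. The 5 gaps with most peaks were of unlike kinds. Kat2b-ps to Gm5559 on chromosome 5 had 19 peaks over 2469 kb, with a median score of 72.1 and a highest of 163, and RefSeq places 30 protein-coding genes there, mostly of the Pramel family, whose copies resemble each other. Gm5167 to Rps12-ps6 on the X had 16 peaks over 536 kb, none above a score of 87.7 and with a median of 60.7. Those 2 gaps were rich in peaks but poor in score.

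The other three gaps held stronger peaks and almost no protein-coding gene. Med13l to Gm2301 on chromosome 5 had 15 peaks over 846 kb, with a highest score of 357, no protein-coding gene and 11 long noncoding RNA genes. Med13l encodes a subunit of the kinase module of Mediator. Tmem132b to Tmem132c on chromosome 5 had 13 peaks over 1454 kb and a highest score of 368.5, with Gm4868 as its single missing protein-coding gene. Zfp516 to Tshz1, a pair of zinc finger genes on chromosome 18, had 11 peaks over 1006 kb, a lowest score of 79.3 and a highest of 231, and no protein-coding gene between them. The 6 genes that were nearest to most far peaks were Gm5167 (14 peaks), Med13l (13), Tmem132b (12), Gm5559 (11), Ajap1 (10) and Gm16063 (8).

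**Figure D4:**
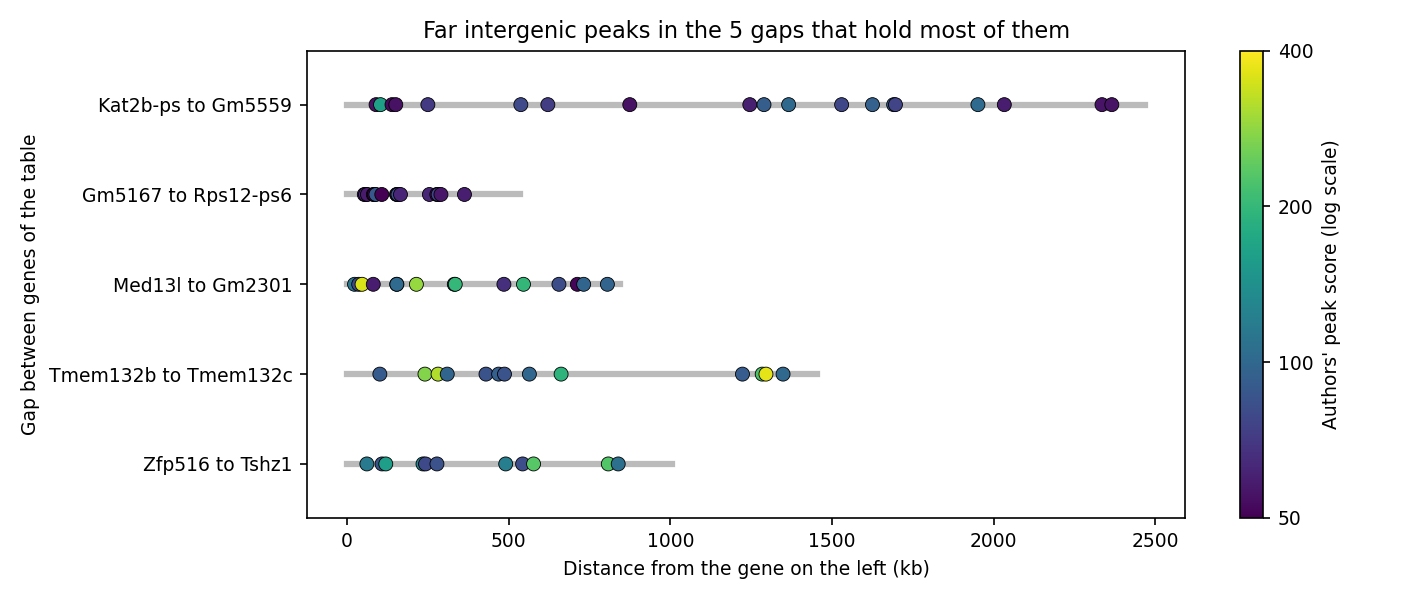
The 5 gaps that hold most far intergenic peaks, each drawn as a grey line to scale in kb from the gene on its left, with peaks as dots coloured by the authors' score (log scale). Dots in the upper pair of gaps are dark, with medians of 72.1 and 60.7, and the lower 3 gaps hold peaks above 200.

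Tight groups were uncommon. Far peaks no more than 10 kb apart formed 170 runs of 2 or more peaks, and 21 of these had 3 or more. The run with most peaks, 5 over 14.6 kb on chromosome 6 (47617719 to 47632309), lay nearest to Ezh2, which encodes the histone H3 lysine methyltransferase of Polycomb repressive complexes. Its scores were between 52.8 and 170. The longest in kb was a run of 4 weak peaks over 23.0 kb on the X, nearest to Gm7698, with scores between 61.2 and 72.4. Among runs of 3 or more, the highest score was in one of 3 peaks over 8.04 kb nearest to A530016L24Rik on chromosome 12, with scores between 124 and 560.

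None of the 15 far peaks of highest score had another peak within 10 kb. The highest score, 2873, belonged to a peak of 379 bp on chromosome 1 (191340673 to 191341051, mm9), which ranked 9 among all 14862 peaks. It lay 171 kb downstream of the 5' end of Cenpf, which encodes a kinetochore protein of dividing cells. A second peak in the same gap between Kcnk2 and Cenpf, at 191447777 to 191448471 and 63.8 kb from that 5' end, had a score of 1341 and the third place among far peaks. These 2 peaks were 107 kb apart. Second among far peaks was one 272 kb upstream of Podxl, the gene of the sialomucin podocalyxin, on chromosome 6 (31785897 to 31786657), with a score of 2085.

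Next came a peak 198 kb upstream of Arid1b, which encodes a subunit of the BAF chromatin remodelling complex, on chromosome 17 (4795622 to 4796074), with a score of 1081. Its neighbours near Arid1b were weak by comparison, with scores of 84.0, 76.8 and 177. A peak 83.9 kb upstream of Syt13, a synaptotagmin gene, on chromosome 2 (92671088 to 92671540), had a score of 1025. Below 1000 the nearest genes were the alpha-tubulin gene Tuba3b (923), Gm10617 (794), the secreted semaphorin gene Sema3c (777), Klhl8 (754) and the class IIa histone deacetylase gene Hdac9 (746). Then followed the homeobox gene Dlx2 (685), Cog3 of the Golgi COG complex (680), Gm16994 (678), the Rab GTPase-activating protein gene Tbc1d15 (673) and Cdon, which encodes a hedgehog co-receptor (659). The Klhl8 peak shows how the rule can take a peak close to genes: it lay 52.4 kb from the 5' end of Klhl8 in a gap of 6.65 kb between the gene bodies of Aff1 and Klhl8.

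The farthest peaks were weak. The 5 farthest lay between 1938 and 2892 kb from a 5' end, nearest to Dsel (2 peaks), Tsn, Gm7110 and Dach1, with scores between 65.2 and 144. At the threshold itself, the 3 peaks just inside lay 50025 bp from Pnp2 (score 126), 50033 bp from 1110021J02Rik (243) and 50045 bp from Gm14274 (141). Among the peaks just outside were one 49976 bp from Tsku (81.2) and one 49889 bp from Wasf3 (169).

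The far peaks had 1619 nearest genes, or 7.12% of the table, and 5977 genes had far territory nearest to them. Genes for developmental transcription factors had more far peaks than expected from distance. These are the regulators of organ and tissue identity of the Sox, Fox, Irx, Pax, Tbx, Tshz, Sall and related families. Far peaks had 40 of the 198 such genes (20.2%) as their nearest gene. Far territory lay nearest to 88 of the 198, against 5977 of the 22744 genes of the table. The 20.2% can therefore not be set directly against the 7.12%. The list had 81 far peaks where 43.6 were expected from distance, a ratio of 1.86 (1.47 to 2.31). Among peaks with a score of at least 100 the ratio was 2.301 (1.65 to 3.12). It was 1.75 (1.37 to 2.19) without Sall3, the member with most peaks, and 1.47 (1.05 to 2.00) when each gene counted with 1 peak at most. Near gene starts the list was described by the share of genes with a peak, a measure unlike the ratio above because territory is not considered. By that share it was below the table within 1 kb and close to it within 10 kb. Within 50 kb its share was higher, with an interval that included the table's. A peak lay within 1 kb of the 5' end for 12 of the 198 genes (6.06%, 3.17% to 10.3%), against 12.9% of all genes in the table, within 10 kb for 55 (27.8%, 21.7% to 34.6%), against 27.9%, and within 50 kb for 133 (67.2%, 60.2% to 73.7%), against 61.7%.

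Single members had up to 7 far peaks. Sall3, a spalt-family zinc finger gene on chromosome 18, had 7, all upstream, between 65.5 and 614 kb from its 5' end, and the most distant of them had the highest score, 450. Tshz1 had 4 peaks with a highest score of 231, Foxq1 4 with 220, and Tfap2c, an AP-2 factor gene active in germ cells, 4 with 181. The highest score on the list was that of Dlx2, 685, and Irx3 followed Sall3 with 331. Of 40 members, 19 had 1 far peak.

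A smaller list of spermatogonial genes also had a ratio above 1, on few peaks. Of its 28 genes 5 were nearest to 10 far peaks where 4.08 were expected, a ratio of 2.45 (1.18 to 4.51), and with 1 peak per gene it was 1.91 (0.619 to 4.45). Eomes, a T-box gene of a subset of undifferentiated spermatogonia, had 1 peak of score 589, 119 kb upstream on chromosome 9 (118268600 to 118268901). Foxo1, a forkhead gene needed to keep spermatogonial stem cells, had 3 peaks with a highest score of 122. Id4, a marker of stem cell activity, also had 3, with scores between 62.7 and 102. The stem cell factor gene Sall4 had 1 of score 124, and Kit, the receptor gene of differentiating spermatogonia, had 2 of scores 86.6 and 67.4. Foxo1 and Sall4 are also on the list of developmental transcription factors.

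Receptor genes that the table lists were at the other end. No far peak was nearest to an olfactory receptor gene of the table, where 5.63 were expected (ratio up to 0.655), and 4 were nearest to vomeronasal receptor genes, where 11.8 were expected (0.339, 0.0924 to 0.868). With 1 peak per gene the vomeronasal ratio was 0.553 (0.151 to 1.42). With a score of at least 100, the olfactory receptor limit was 1.54. These ratios cover the 35 olfactory and 44 vomeronasal receptor genes in the table alone: gaps that hold the 302 missing olfactory receptor genes had 18 far peaks, and gaps that hold the 66 missing vomeronasal receptor genes had 25. The 4 vomeronasal peaks were near Vmn2r31, Vmn1r90, Vmn1r35 and Vmn1r157 with scores between 50.8 and 95.7. Other lists had intervals that included 1. Cadherins and protocadherins had 25 peaks and a ratio of 0.769 (0.498 to 1.14), with Cdh26 and Pcdh17 as examples. Neuronal adhesion, guidance and synaptic genes had 51 and 0.798 (0.594 to 1.05), and potassium channel subunits had 16 and 0.897 (0.512 to 1.46). Among testis lists, Sertoli cell genes had 6 peaks and 1.73 (0.633 to 3.76), Leydig cell genes 4 and 1.45 (0.395 to 3.71), and spermatid genes 2 and 0.879 (0.106 to 3.17). Of the 4 Leydig cell peaks, 3 were nearest to Nr2f2, which is also on the list of developmental transcription factors. Genes of meiotic entry and prophase had none where 1.30 were expected. Only 5 of these 33 genes had far territory, so this list could show little.

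The intervals included 1 for genes at both ends of the expression range. When all genes were cut into 5 equal groups by their mean in P8 wild-type testis, the ratio of far peaks to those expected from distance was 0.947 (0.868 to 1.03) in the lowest group. It was 0.991, 0.993 and 0.998 in the next groups and 1.08 (0.9896 to 1.18) in the highest.

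The targeted gene served as a check on the genotype labels. Dmrtb1 had -0.88, -0.13 and 0.03 log2 CPM (reads scaled to library size, as log2) in null replicates 1, 2 and 3, against 3.03, 4.12 and 3.21 log2 CPM in wild-type replicates 1, 2 and 3. The groups did not overlap, and the difference was -3.78 (SE 0.36), with an adjusted p of 0.0516 in limma over 16634 genes, just above the threshold of 0.05 and so not called. Over the alternatives the adjusted p was between 0.00678 and 0.289, and without null replicate 3 it was 0.0182. The labelled tissue showed in its markers: germ cell genes such as Ddx4 and Dazl averaged 8.002 and 9.17 in null and 7.95 and 9.18 log2 CPM in wild type, and Sertoli and Leydig cell genes were present. The haploid germ cell gene Prm1 had between 1 and 4 reads in every library.

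None of the genes nearest to a far peak passed the test between null and wild-type P8 testis. Of 1619 nearest genes 1163 (71.8%) had a mean of at least 0 log2 CPM and were tested, and limma called 0 of them at an adjusted p under 0.05, where the share over all tested genes was 0.00601%. voom on recovered reads also called 0, with 48 (4.13%) at an unadjusted p under 0.05, against 3.33% of all tested genes. An unadjusted p under 0.05 was found for 51 (4.39%), 27 higher and 24 lower in null, against a background of 3.47% over all tested genes (1.63% higher and 1.85% lower). Genes with far territory but no far peak were close to this share, with 129 of 3057 (4.22%). Leaving out null replicate 2 brought the count to 189 and leaving out wild-type replicate 1 or 3 brought it to 28 or 15, while the share over all tested genes came to 15.3%, 1.61% or 1.47%. Null and wild-type values did not overlap for 149 nearest genes (12.8%), against 11.1% of all tested genes. The median change was -0.0095, against -0.029 in genes with far territory but no far peak and 0.0091 over all tested genes. Among 160 tested genes with 3 or more far peaks, 7 (4.38%) had an unadjusted p under 0.05.

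The genes beside the strongest far peaks were among those that did not pass the test. Cenpf had 8.79, 8.71 and 8.56 log2 CPM in null libraries and 8.81, 8.80 and 8.84 log2 CPM in wild-type libraries. All null values lay below the wild-type values, and the difference was -0.13 (SE 0.09, adjusted p = 0.755 in limma). Podxl had 5.22, 5.51 and 5.78 log2 CPM in null libraries and 6.16, 5.60 and 5.51 in wild-type libraries, which overlapped. Arid1b had 5.40, 5.10 and 6.46 log2 CPM in null libraries and 5.31, 5.39 and 5.12 in wild-type libraries, with null replicate 3 above all others.

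Hdac9 had 3.86, 3.51 and 3.70 log2 CPM in null libraries and 3.87, 3.91 and 4.26 in wild-type libraries, a difference of -0.32 (SE 0.17, adjusted p = 0.755 in limma) with no overlap. Klhl8 had 4.94, 4.68 and 4.93 log2 CPM in null libraries and 4.62, 4.59 and 4.66 in wild-type libraries, a difference of 0.23 (SE 0.12, adjusted p = 0.755 in limma), also with no overlap. Gm10617, Dlx2 and Gm16994 were near the limit of detection, with at most 16 reads in any library, and were not tested. Dlx2, for example, had 4, 2 and 6 reads in null libraries and 4, 6 and 2 reads in wild-type libraries. The other genes on this list, Syt13, Tuba3b, Sema3c, Cog3, Tbc1d15 and Cdon, had overlapping libraries.

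Of the genes with most far peaks, Med13l had 5.49, 5.43 and 6.45 log2 CPM in null libraries and 5.41, 5.49 and 5.34 in wild-type libraries, so null replicate 3 again stood above the rest. That library was likewise the highest of the 6 for Sall4, Foxo1, Grik3, Sik1 and Inhbb, genes listed here after their values were seen. It was the highest or the lowest of the 6 for most genes: of 16634 tested genes it was highest for 34.5% and lowest for 34.0%, and of the 1163 tested nearest genes it was highest for 30.7% and lowest for 36.7%. Of the 22 tested Sertoli cell genes it was highest for 13, among them Sox9, Amh and Wt1, and lowest for 5, among them Fshr and Kitl. Summed over the 23 genes of that list in the table, the level was 6187, 5047 and 5926 CPM in null replicates 1, 2 and 3. It was 5798, 5571 and 5942 CPM in wild-type replicates 1, 2 and 3, with no gene at 0 reads in any library. The sum of null replicate 3 thus lay within the wild-type range. Sox9 had 5.86, 5.32 and 6.81 log2 CPM in null libraries and 5.45, 5.60 and 5.46 in wild-type libraries. What part this had in single genes was not tested. Tmem132b had 14, 13 and 11 reads in null libraries and 2, 8 and 8 reads in wild-type libraries, too few for the test, with no overlap.

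The nearest genes of smallest p missed the adjusted threshold in either direction. Slc24a2, which encodes a sodium, calcium and potassium exchanger and lies on chromosome 4 as Dmrtb1 does, had 6 far peaks, all upstream, with scores between 67.1 and 185.5. It had 1.75, 1.56 and 0.96 log2 CPM in null libraries and 3.01, 3.33 and 3.56 log2 CPM in wild-type libraries. All null values lay below all wild-type values, and the difference was -1.88 (SE 0.26, adjusted p = 0.295 in limma). Enpp6, a choline-specific phosphodiesterase gene with 1 far peak, had 1.697, 1.22 and 1.41 log2 CPM in null libraries and 2.43, 2.23 and 2.26 in wild-type libraries, a difference of -0.86 (SE 0.21). The differences of 5830454E08Rik, of the Rac GTPase-activating protein gene Arhgap15 and of the histone variant gene H2afz were -0.88 (SE 0.27), -1.004 (SE 0.31) and -0.34 (SE 0.11). These 4 genes had an adjusted p of 0.755 in limma.

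On the other side, Bmp2, the gene of a bone morphogenetic protein ligand with 2 far peaks, had 1.79, 2.26 and 1.90 log2 CPM in null libraries and 0.68, 0.99 and 0.36 in wild-type libraries. All null values lay above all wild-type values, and the difference was 1.31 (SE 0.26). Adcy8, an adenylyl cyclase gene, had 2.11, 2.36 and 1.78 log2 CPM in null libraries and 1.43, 0.60 and -0.18 in wild-type libraries, a difference of 1.46 (SE 0.40) without overlap. Grik3, a kainate receptor subunit gene, lies on chromosome 4 as Slc24a2 and Dmrtb1 do. It had 3.09, 3.25 and 4.74 log2 CPM in null libraries and 1.73, 2.74 and 2.41 in wild-type libraries. The differences were 1.398 (SE 0.45) for Grik3, 0.78 (SE 0.25) for the salt-inducible kinase gene Sik1 and 0.34 (SE 0.12) for the tubulin deglutamylase gene Agtpbp1. All 5 had an adjusted p of 0.755 in limma.

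None of the tested list genes near far peaks passed either. Foxo1 had 5.97, 6.01 and 6.75 log2 CPM in null libraries and 5.82, 6.03 and 5.79 in wild-type libraries, and Sall4 had 4.77, 4.404 and 6.07 in null libraries and 4.55, 4.75 and 4.05 in wild-type libraries. Both overlapped. Kit had 7.13, 7.03 and 7.43 log2 CPM in null libraries and 6.83, 6.999 and 6.71 in wild-type libraries. All null values lay above all wild-type values, and the difference was 0.35 (SE 0.13, adjusted p = 0.755 in limma, unadjusted p = 0.0281). Id4 averaged 2.67 ± 0.34 log2 CPM in null and 2.75 ± 0.45 in wild type (SD, n = 3 each). Hsd17b3, a testosterone synthesis gene on the Leydig cell list with 1 far peak, had 7.07, 7.02 and 6.68 log2 CPM in null libraries and 7.67, 7.16 and 7.30 in wild-type libraries. Its groups did not overlap, with a difference of -0.45 (SE 0.16, adjusted p = 0.755 in limma). Kcnj15, a potassium channel gene with 5 far peaks, had 2.09, 2.98 and 1.78 log2 CPM in null libraries and 1.73, 0.89 and 1.03 in wild-type libraries, a difference of 1.06 (SE 0.36, adjusted p = 0.755 in limma).

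**Figure D5:**
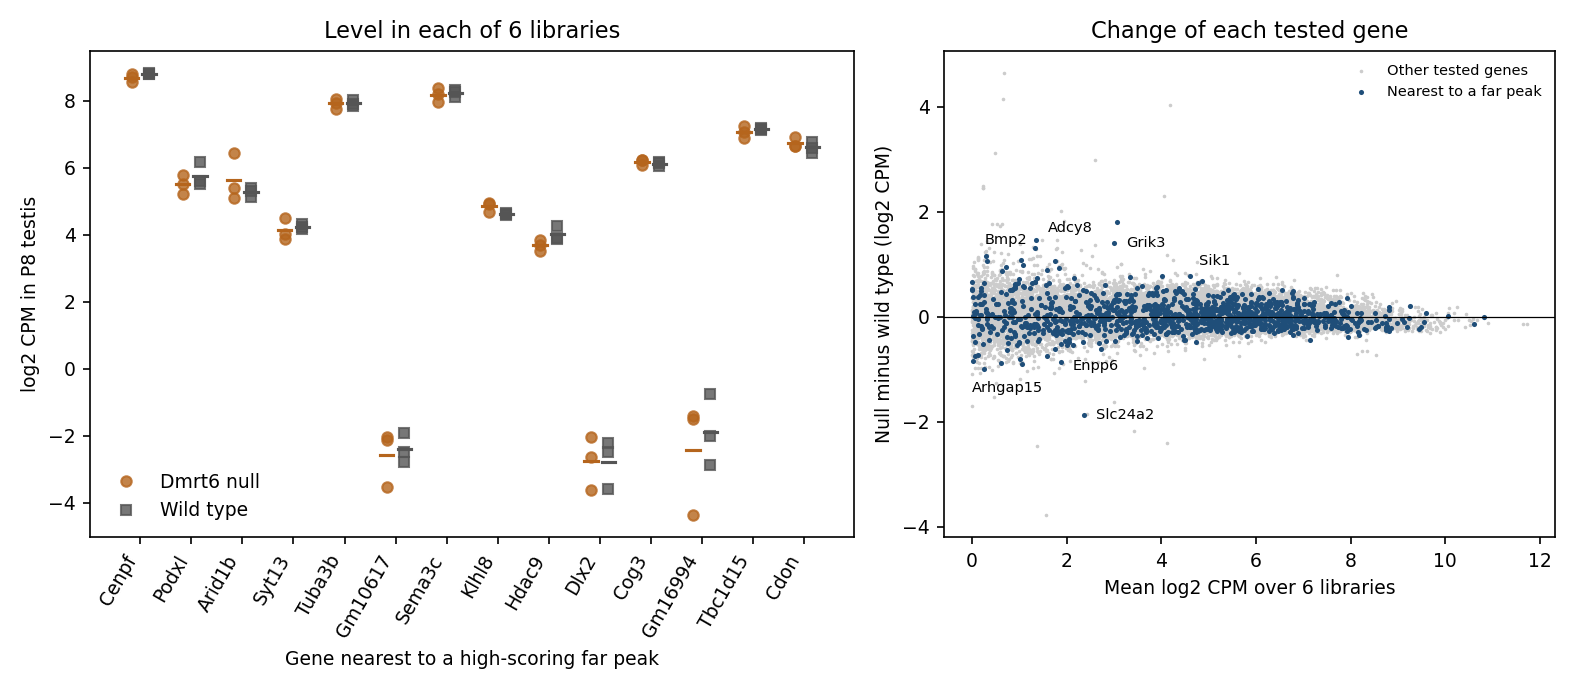
Left, log2 CPM in P8 testis of the 14 genes nearest to the 15 far peaks of highest score, with each Dmrt6 null library as a circle, each wild-type library as a square and means as bars. Right, difference in log2 CPM, null minus wild type, against the mean over 6 libraries for all 16634 tested genes, with the 1163 genes nearest to a far peak in blue; Slc24a2 lies lowest among these at -1.88, and their median is -0.0095.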

How the data were processed

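The expression values are log2 CPM deposited by the authors in a table of 22744 genes with mm9 coordinates; the submitters' processing notes name STAR 2.3.0e, Bowtie2, Picard, edgeR and mm9 without a role for each. The read counter, the annotation and the strand setting were not given in the sources used here, so overlapping and antisense genes cannot be told apart. The authors' values step in whole reads (100% whole at a tolerance of 0.0001), from which depth was recovered. Peaks and the deposited score of each are the authors', from 1 ChIP library with 1 input library; the scale of the score is not stated, its lowest value is 50.02, and it served to describe, rank and filter peaks and for no test.

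Coordinates are 1-based, and a gene's 5' end is its table coordinate on the 5' side, so alternative starts are not seen. Far territory was measured on a grid of 1 kb for the numbers expected from distance. RefSeq genes (GRCm38) were matched by symbol or ID for 20955 of the 22744 genes. No genome of the files' build was used, so no peak sequence is shown.

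Genes with a mean of at least 0 log2 CPM (16634) were tested with limma-trend (limma 3.58.1, R 4.3.3), null minus wild type, no covariate, adjusted by Benjamini-Hochberg, threshold 0.05. The test was tried first on simulated counts, with the same spread setting for every gene and no effect of single libraries. That trial does not show how the test performs on these libraries. The 3 libraries against 3 cannot give an exact permutation p below 0.1, so none was used. The labels do not say more of the replicates than the design text does. Named are Dmrtb1, the nearest genes of the 15 peaks of highest score, the 6 genes nearest to most far peaks, the 5 tested nearest genes of smallest p in each direction, and up to 4 members per list by peak score; Kit, Tshz1, Foxq1, Tfap2c and the runs were added after their values were seen. The far peaks, the 11 gene lists and the named-gene rule were chosen with earlier results of these data known. The bins by distance from a gene body and the counts near 5' ends were also added after the data were seen.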

Additional observations from a re-analysis of the deposited data

How the results depend on the processing

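The number and share of far peaks follow the distance chosen: more than 20 kb gave 3945 peaks (26.5%), 2.84 per Mb, a median width of 160 bp and 18.1% within 10 kb of another peak. More than 100 kb gave 1582 peaks (10.6%), 1.74 per Mb, a median score of 87.6, a width of 152 bp and 11.7%. A score of at least 100 left 1047 (15.2%), 0.913 per Mb, a median score of 157, a width of 212 bp and 11.2%. Without X and Y the density was 2.35 per Mb. Another peak lay within 5 kb of 10.6% and within 20 kb of 24.2%. Chosen after the data were seen, gaps with no missing protein-coding gene left 1534 peaks, and territory from the first gene or peak gave 2.38 per Mb.

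For genotype, calls over all genes numbered 1, against 3 with no filter, 3 after quantile normalization, 3 after median centring, 0 at a mean of at least 2 log2 CPM, and 0 to 5 with single libraries left out. The nearest genes with an unadjusted p under 0.05 numbered 15 to 189 with single libraries left out. Their median change was -0.044 after quantile normalization and -0.057 after median centring, where that of all tested genes was -0.025 and -0.038. Dmrtb1 passed the threshold with no filter (-3.78, adjusted p = 0.0297), after quantile normalization (-3.81, 0.0126) and after median centring (-3.83, 0.00678) in limma, and its difference was -3.996 to -3.45 with single libraries left out. With the replicate number as a block, limma called 2 genes, 27 nearest genes (2.32%) had an unadjusted p under 0.05, against 2.12% of all tested genes, and Dmrtb1 was at -3.78 (adjusted p = 0.0269). Deviations of same-numbered libraries correlated at -0.09, -0.22 and -0.04 across genes, and those of differently numbered libraries at -0.14 to 0.23. Deviations from the mean of a small group depend on one another. The correlations therefore cannot show whether same-numbered libraries were paired, and the labels do not say. In 115 refits of the 10 nearest genes of smallest p, direction and side of the threshold were the same in 115. These genes were picked by their p in these data, and their null and wild-type values did not overlap. Leaving out a library or adding the block could thus not reverse a direction, so the count is no check on it. The cause of the changes between settings was not tested.

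A single ChIP library, of unknown depth and without null testis, limits every statement on peaks, and the RNA came from younger testis than the chromatin.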
